A study of Bos taurus with 14 samples.

Results

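FASN, ACACA, SCD and DGAT1, which encode enzymes of milk fat synthesis, were followed in the RNA of milk fat globules from 14 cows. The genes were chosen by their Ensembl identifiers, and each of the 4 identifiers was paired with its symbol by that choice, since neither the deposited tables nor the reference table of gene names pairs them. Of the 4 genes, 3 were measured here, among 36075 identifiers in all: FASN (ENSBTAG00000015980), ACACA (ENSBTAG00000017567) and DGAT1 (ENSBTAG00000026356). SCD (ENSBTAG00000045728), which puts the double bond into stearic acid, was not analysed here. All cows were purebred Holsteins of a commercial farm and shared rations, water and management. The groups were 7 cows homozygous for the A1 form of β-casein (A1A1) and 7 homozygous for the A2 form (A2A2), with 1 library per cow. The comparison asks how the globule transcriptome differs between these genotypes of a milk protein gene. Cows are called by genotype and by the sample number in their title, for example A1A1 7. The labels name the tissue as milk fat globules but do not describe a step that separates the fat from the milk, and RNA was extracted from frozen milk.

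The secretory cell of the udder makes short- and medium-chain fatty acids itself. Acetyl-CoA carboxylase α, the product of ACACA, carboxylates acetyl-CoA to malonyl-CoA, the committed step. Fatty acid synthase, the product of FASN, then extends the chain from malonyl-CoA and releases the fatty acid. Diacylglycerol O-acyltransferase 1, the product of DGAT1, joins a fatty acid to diacylglycerol in the last step of triglyceride synthesis, and the triglyceride gathers in droplets that the cell secretes as globules. In ruminants acetate and not glucose supplies most of the carbon for this synthesis. A globule carries some cytoplasm of its cell, which is the source of its RNA. In such bulk samples fewer cells of a type and less RNA per cell cannot be told apart.

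Total counts ran from 16116849 to 22994197 per library. Of 12320 genes tested with edgeR's quasi-likelihood test, 0 had an adjusted p of 0.05 or less between the genotypes, which is 0%, and 411 or 3.34% had an unadjusted p under 0.05. The unadjusted count rests on single cows. It was 1364 of 12602 genes tested without A1A1 7 and 1355 of 12405 without A2A2 11. Without A1A1 2, A1A1 9, A2A2 13 and A2A2 17 it was 262 of 12454, 267 of 12473, 269 of 12534 and 224 of 12569. DESeq2 called 12 genes, or 0.0974%. By limma voom with a quality weight for each library 0 of 12320 genes were called. Of the 12320, 1238 had an unadjusted p under 0.05. Of the tested genes, 5 or 0.0406% had values that did not overlap between the genotypes. With all 14 libraries, FASN, ACACA and DGAT1 were not among the genes called, under an unadjusted p of 0.05 or without overlap. Without A1A1 7, ACACA had an unadjusted edgeR p of 0.0290 and was thus among the 1364 of 12602. The labels do not say more about how the cows were chosen within the farm. The p-values of genotype differences therefore judge each difference against the variation between these 14 cows alone.

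FASN was the most abundant of the 3 genes and varied 33.1-fold between cows, or 8.12-fold without A1A1 9 and 19.9-fold without A1A1 7. In A1A1 its level ran from 700.4 CPM (the count relative to the library's total, scaled by the trimmed mean of M-values, TMM) in A1A1 9 through a median of 4401 to 23162 in A1A1 7. In A2A2 it ran from 3534 CPM in A2A2 11 through a median of 8078 to 13971 in A2A2 17. The A2A2 cows thus lay inside the range of the A1A1 cows, and the highest and the lowest cow of the study were both A1A1. In A1A1 7, FASN took 2.27% of all counts (exact binomial 95% interval 2.26 to 2.28%), against 0.0635% in A1A1 9 (0.0623 to 0.0646%). Both intervals describe the counting alone, and they are narrow beside the range between cows. The 7 A1A1 cows averaged 7152 ± 7446 CPM and the 7 A2A2 cows 8080 ± 3646 CPM (mean ± SD).

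No genotype difference was detected for FASN. edgeR gave a log2 fold change of 0.18 for A2A2 over A1A1, and its p adjusted over the whole table was 0.939. On the scale of mean log2 CPM, which gives the lowest cow more weight, the difference was 0.65 with a standard error of 0.65 (exact permutation p = 0.353, two-sided). Its 95% interval from the exact permutation test ran from -0.70 to 2.04, which is wide enough to hold a difference in either direction. The median was 1.84-fold higher in A2A2 and 5 of 7 A2A2 cows lay above the A1A1 median, while the mean was 1.13-fold higher. Without A1A1 7 the edgeR log2 fold change was 0.85 (adjusted p = 0.466), without A1A1 9 it was -0.025 and without A2A2 17 it was -0.010. Single cows therefore decide the size and the direction of this value.

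ACACA placed the cows in nearly the same order as FASN, at a lower level. Its level in A1A1 ran from 91.1 CPM in A1A1 9 through a median of 392.0 to 1955 in A1A1 7, a 21.5-fold range over all cows that was 8.23-fold without A1A1 9 and 14.2-fold without A1A1 7. In A2A2 it ran from 356.5 CPM in A2A2 11 through a median of 780.8 to 1296 in A2A2 13, a 3.64-fold range. As for FASN, the A1A1 range enclosed all A2A2 cows. The averages were 611 ± 621 CPM over 7 A1A1 cows and 778 ± 375 CPM over 7 A2A2 cows (mean ± SD).

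No genotype difference was detected for ACACA either. The edgeR log2 fold change was 0.35 and the p adjusted over the whole table was 0.878. As a difference between mean log2 CPM values it was 0.73 with a standard error of 0.58, a two-sided exact permutation p of 0.249 and a 95% interval of -0.52 to 1.97. The median was 1.99-fold higher in A2A2, with 5 of 7 A2A2 cows above the A1A1 median. Without A1A1 7 the difference in mean log2 CPM was 1.09 (exact permutation p = 0.0472) and the edgeR log2 fold change was 1.01, which did not pass over all genes (adjusted p = 0.455). Without A1A1 9 the edgeR value was 0.16. Without A1A1 7 and A1A1 9 together it was 0.81 (edgeR unadjusted p = 0.0368, adjusted p = 0.764). In that fit, chosen after seeing the data, 804 of 12758 genes had an unadjusted p under 0.05. The exact permutation p of mean log2 CPM without these cows was 0.107.

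DGAT1 was the least abundant of the 3 genes. It had 24 to 118 counts per library, and ranked 8950 by total counts among 21104 genes with a count, where FASN ranked 18 and ACACA 119. In A1A1 it ran from 1.51 CPM in A1A1 15 through a median of 3.31 to 7.46 in A1A1 7. In A2A2 it ran from 1.70 CPM in A2A2 17 through a median of 3.58 to 4.55 in A2A2 4. The A2A2 cows thus lay inside the range of the A1A1 cows. Counting error is larger here: the 24 counts of A1A1 3 are 0.000123% of its library, with an exact binomial 95% interval of 0.0000787 to 0.000183%. Over 7 cows each, A1A1 averaged 3.60 ± 2.06 CPM and A2A2 3.18 ± 1.29 CPM (mean ± SD).

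For DGAT1 the edgeR log2 fold change was -0.18 and the p adjusted over the whole table was 0.913. Between mean log2 CPM values the difference was -0.096 (standard error 0.33, two-sided exact permutation p = 0.779, 95% interval -0.84 to 0.62). Without A1A1 7, which had the highest level, the edgeR value was 0.11. With all 14 libraries, limma voom with library weights gave 0.11, and the difference in mean log2 CPM was 0.013 without A2A2 17. No genotype difference was therefore detected for DGAT1. The sign of its value changed with the cow left out and in the weighted test. The part of the weights in this was not tested.

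**Figure D1:**
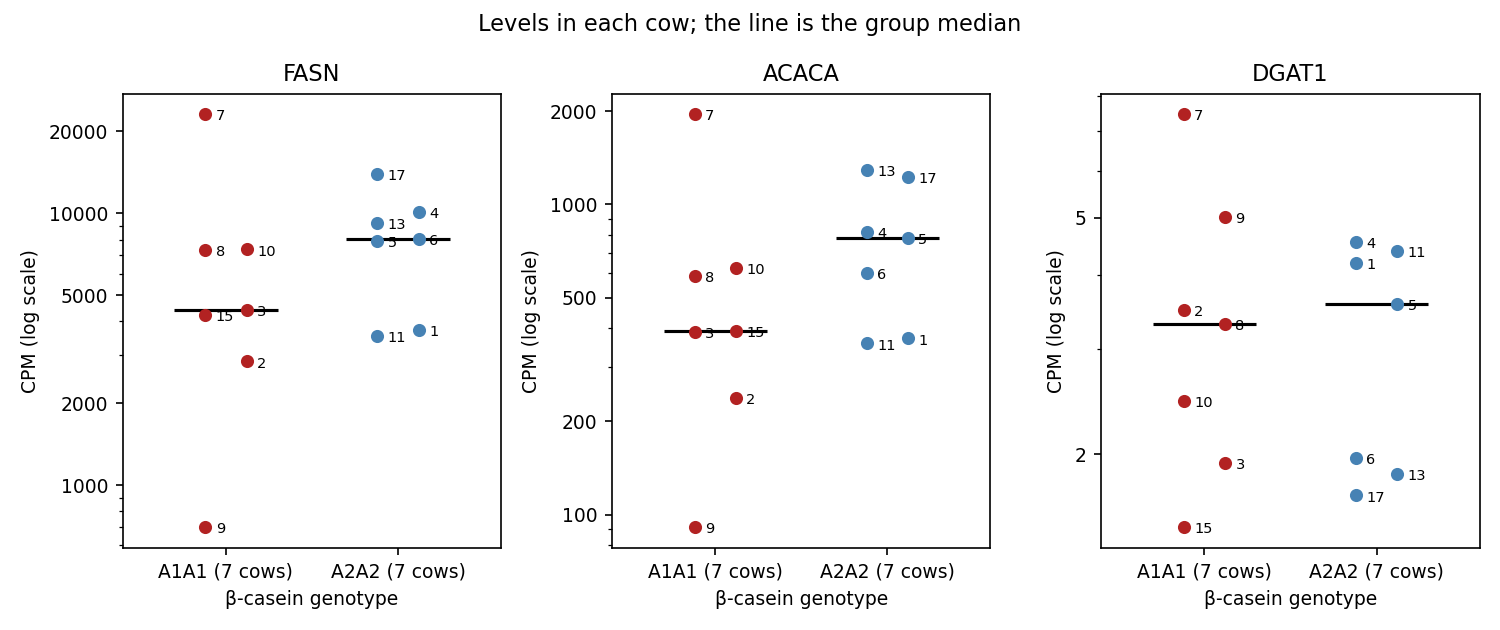
Level of FASN, ACACA and DGAT1 in each cow, in CPM on log axes, by β-casein genotype. Each point is 1 cow with its sample number and the line is the group median; A1A1 7 is highest for all 3 genes, and A1A1 9 is lowest for FASN and ACACA but second for DGAT1.

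The sample descriptions of 4 libraries, A1A1 10 and 15 and A2A2 5 and 13, end in a suffix that the labels do not explain. Among the 10 libraries without it, the difference in mean log2 CPM was 0.67 for FASN, 0.61 for ACACA and -0.27 for DGAT1 (exact permutation p = 0.508, 0.50 and 0.540). The edgeR log2 fold changes in the same 10 libraries were smaller for FASN and ACACA, at 0.024 and 0.036, and -0.33 for DGAT1 (adjusted p = 0.998, 0.995 and 0.973). In the 4 with it, 2 cows of each genotype, the differences were 0.61, 1.02 and 0.35, with no test. Between libraries with and without the suffix, edgeR called 111 of 13323 genes, or 0.833%, and none of the 3 genes. Their log2 fold changes there were -0.13 for FASN, 0.20 for ACACA and -0.72 for DGAT1 (edgeR adjusted p = 0.932, 0.884 and 0.346).

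**Figure D2:**
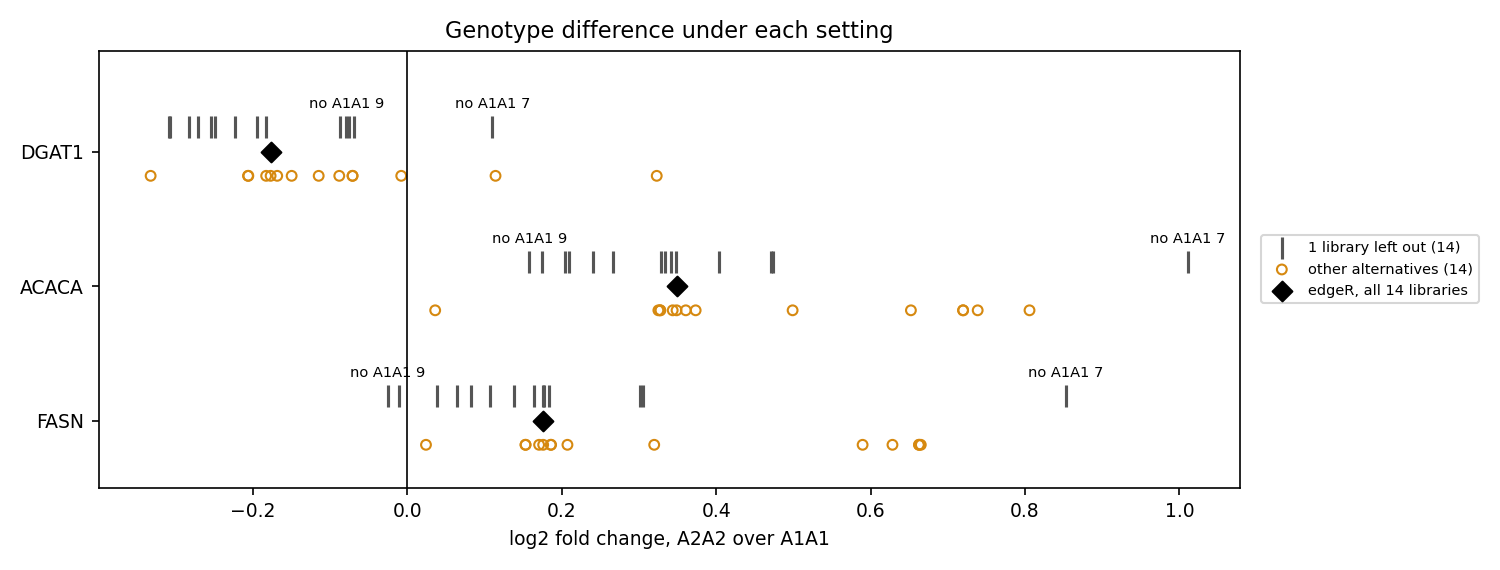
Log2 fold change of A2A2 over A1A1 for each gene in the edgeR test of all 14 libraries (diamond), with 1 library left out (bars) and under the other alternatives (circles). The values without A1A1 7 lie farthest to the right among the bars for all 3 genes, at 0.85 for FASN, 1.01 for ACACA and 0.11 for DGAT1.

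Levels of different genes were compared per length, on the scale of the deposited FPKM (fragments per kilobase of gene, scaled by 1 factor per library). These factors lay within 3.25% of the library's total times its TMM factor, so FPKM is not a scale apart from TMM. The gene lengths that the FPKM values imply are 8214 bases for FASN, 8067 for ACACA and 1758 for DGAT1. In each of the 14 cows FASN was above ACACA and ACACA above DGAT1. FASN had 868 ± 905 FPKM in A1A1 and 987 ± 449 FPKM in A2A2. ACACA had 75.5 ± 76.9 and 96.8 ± 47.0 FPKM, and DGAT1 had 2.03 ± 1.17 and 1.81 ± 0.729 FPKM (SD, n = 7 each). By FPKM, FASN ranked between 31 in A1A1 7 and 652 in A1A1 9 among all genes of a library, ACACA between 231 and 3595 in the same cows, and DGAT1 between 5888 in A1A1 7 and 10650 in A1A1 15.

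The ratio of FASN to ACACA stayed in a narrow range while both levels moved widely. FASN per length was 6.97 to 13.1 times ACACA, a 1.89-fold range, with a median of 11.2. The lowest ratios were 6.97 in A2A2 13 and 7.55 in A1A1 9, and the other 12 cows lay between 9.74 and 13.1. The log2 ratio averaged 3.44 ± 0.24 over 7 A1A1 cows and 3.36 ± 0.30 over 7 A2A2 cows (mean ± SD), so that the means differed by less than the SD of either group. Such a ratio within a library does not depend on how libraries are scaled.

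The ratio of FASN to DGAT1, by contrast, ran from 29.9 in A1A1 9 to 1754 in A2A2 17, a 58.6-fold range. That of ACACA to DGAT1 ran from 3.96 to 157 in the same cows, a 39.5-fold range. A1A1 9 widened both ranges: without it the lowest ratios were 172 and 14.8 and the ranges were still 10.2-fold and 10.6-fold. Without A2A2 17 the ratio of FASN to DGAT1 had a 35.6-fold range. In A1A1 9, the lowest in both, FASN and ACACA were the lowest of all cows and DGAT1 the second highest. The mean log2 ratio of FASN to DGAT1 was 8.30 ± 1.64 in A1A1 and 9.06 ± 1.25 in A2A2, and that of ACACA to DGAT1 was 4.86 ± 1.44 and 5.70 ± 1.27 (SD, n = 7 each), which overlap between the genotypes.

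Over the 14 cows the log2 CPM of FASN and ACACA rose and fell together, with Pearson's r = 0.98 and Spearman's rho = 0.97. Both had a permutation p of 1e-05, the smallest that 100000 resamples can give, and an adjusted p of 3e-05 over 3 pairs. Without A1A1 7 and A1A1 9, the 2 cows farthest from the median of FASN, r was 0.95 (permutation p = 3e-05, n = 12). Within A1A1 r was 0.99 (exact permutation p = 0.000595, n = 7) and within A2A2 it was 0.92 (exact permutation p = 0.00813, n = 7). Among the 10 libraries without the suffix r was 0.99 (permutation p = 1e-05).

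DGAT1 showed no detectable relation to either gene. Its r was -0.091 with FASN (rho = -0.13, permutation p = 0.763 and 0.660) and -0.093 with ACACA (rho = -0.16, permutation p = 0.754 and 0.594), with adjusted p of 0.763 for both r and 0.660 for both rho over 3 pairs. Single cows moved these values: without A1A1 7 alone r was -0.48 with FASN and -0.49 with ACACA (permutation p = 0.0827 and 0.0853, n = 13), and without A1A1 9 alone it was 0.19 and 0.15 (permutation p = 0.526 and 0.631, n = 13). Without both cows the values were -0.28 and -0.31 (permutation p = 0.361 and 0.326, n = 12). Within A2A2 they were -0.64 and -0.68 (exact permutation p = 0.169 and 0.124, n = 7), and within A1A1 0.14 and 0.20 (exact permutation p = 0.787 and 0.701, n = 7). Among the 10 libraries without the suffix they were -0.089 and -0.036 (permutation p = 0.812 and 0.924).

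**Figure D3:**
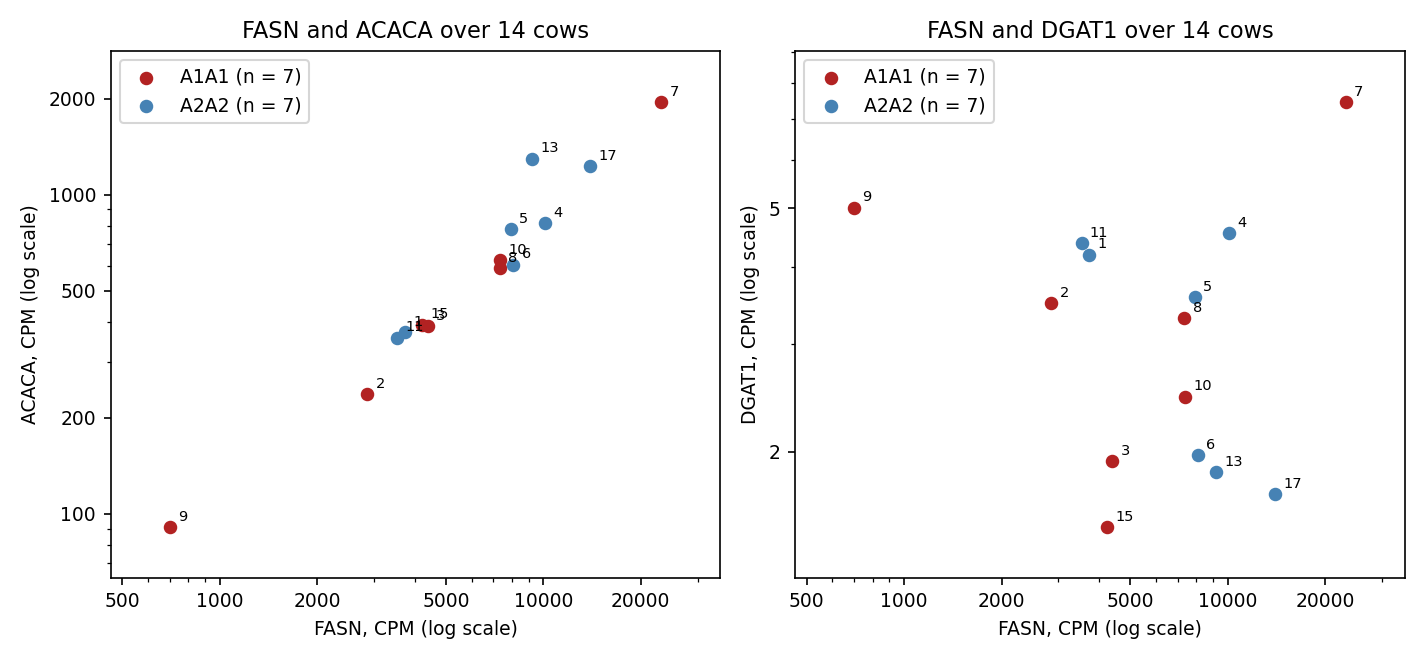
FASN against ACACA (left) and against DGAT1 (right) over 14 cows, in CPM on log axes, with sample numbers and the genotype by colour. ACACA lies along a line with FASN in both genotypes (r = 0.98 on the log2 scale), while DGAT1 scatters (r = -0.091).

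Set against all other tested genes, ACACA was second in likeness to FASN and FASN second in likeness to ACACA, by Pearson's r of log2 CPM over the 14 cows among 12319 genes. With 1 library left out, ACACA held place 1 to 7 for FASN and FASN place 1 to 4 for ACACA. ENSBTAG00000005929, a gene 8217 bases long of abundance rank 739, was first for both, with r = 0.98 to each. The next 3 genes other than members by likeness to FASN have abundance ranks 865, 2247 and 1742 and lengths of 5445, 3340 and 2354 bases, with r = 0.97 for each. The next 3 for ACACA have ranks 554, 1440 and 395 and lengths of 5428, 4855 and 4879 bases, with r of 0.98, 0.98 and 0.97. These genes and ENSBTAG00000005929 were, as FASN and ACACA, lowest in A1A1 9 and highest in A1A1 7 by FPKM. They were picked by their r over these same cows, so the shared extremes follow largely from the choice.

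The shared pattern was common among the genes. An r of at least 0.8 was reached by 836 genes or 6.79% with FASN and by 868 or 7.05% with ACACA. An r of -0.8 or lower was reached by 972 genes (7.89%) with FASN and by 1184 (9.61%) with ACACA. Without A1A1 9, the shares with FASN and ACACA were 4.41 and 4.61% at 0.8 or above and 4.47 and 6.42% at -0.8 or lower. Leaving the members out, 737 genes reached 0.8 with both, out of 835 that did so with FASN and 867 with ACACA. These correlations share libraries and depth, and they are given as a description.

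Fewer genes reached such an r with DGAT1, with 16 genes or 0.130% at an r of at least 0.8 and 13 or 0.106% at -0.8 or lower. With 1 library left out the first count ran from 7 without A1A1 15 to 47 without A2A2 17 and the second from 10 without A1A1 15 to 49 without A1A1 3. ENSBTAG00000003830, 664 bases long and of abundance rank 1198, was nearest to DGAT1 with r = 0.93. The next 4 have ranks 1659, 3401, 3999 and 2309, lengths of 1259, 794, 1994 and 1706 bases and r of 0.92, 0.87, 0.84 and 0.83. None of the 16 genes reached 0.8 with FASN or ACACA (0 genes). DGAT1 had an r of -0.091 with FASN and -0.093 with ACACA over the same cows. With such values no gene can reach 0.8 with DGAT1 and either of them, so this count adds nothing to them. Counting error is larger for DGAT1, at 24 to 118 counts per library, and its effect on these shares was not tested.

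FASN and ACACA were among the genes that varied most between cows. The SD of log2 CPM over the 14 cows was 1.21 for FASN and 1.12 for ACACA, against a median of 0.51 over the 12320 genes tested, which placed them at percentiles 94.1 and 92.4. DGAT1 had an SD of 0.60, at percentile 61.8, although its counts are low. The biological coefficient of variation within genotypes that edgeR estimated was 69.1% for FASN, 66.0% for ACACA and 50.3% for DGAT1, against a median of 40.5%. Within A1A1 the SD of log2 CPM was 1.54 for FASN and 1.35 for ACACA, and within A2A2 it was 0.74 and 0.75. Whether the genotypes differ in spread was not tested. A1A1 7 and A1A1 9 are the highest and lowest A1A1 cows for both genes, so leaving them out must lower the SD. Without them the A1A1 SD was 0.58 for FASN and 0.56 for ACACA (n = 5), and A2A2 was not trimmed in this way.

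**Figure D4:**
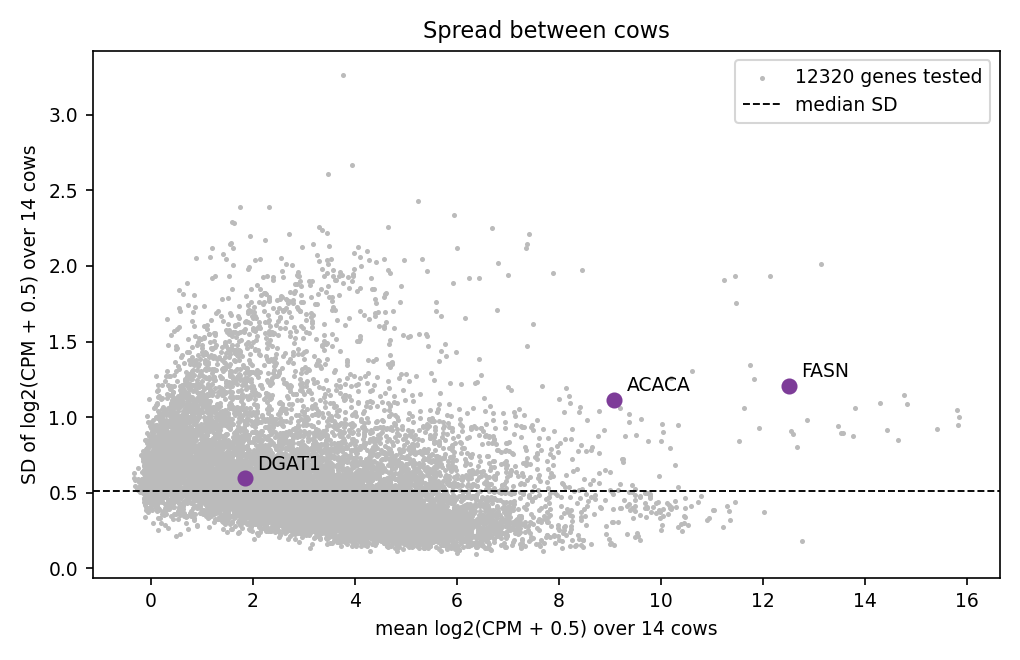
Mean against SD of log2 CPM over the 14 cows for the 12320 genes tested (grey), with FASN, ACACA and DGAT1 marked and the median SD as a dashed line. FASN and ACACA lie well above the median of 0.51, at 1.21 and 1.12, and DGAT1 lies near it at 0.60.

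Library measures moved with FASN and ACACA. For 12 abundant genes that have the length of a mitochondrial protein or rRNA gene, the share of counts ran from 12.4 to 51.8% in A1A1 and from 5.12 to 19.6% in A2A2. The medians were 23.7% in A1A1 and 9.66% in A2A2. The share was highest in A1A1 9, where FASN and ACACA were lowest. The share and the levels come from the same counts, and an r over all cows includes any difference between the genotypes. The part of either in the r was not tested. Over the 14 cows the share had r = -0.69 with FASN (rho = -0.60, permutation p = 0.0133 and 0.0289) and -0.66 with ACACA (rho = -0.50, permutation p = 0.0136 and 0.0712). The adjusted p of r was 0.0408 for both over 9 relations, and that of rho was 0.0867 and 0.160. Without A1A1 8 and A1A1 9, the 2 cows farthest from the median share, r was -0.39 and -0.37 (permutation p = 0.214 and 0.235, n = 12). The relation was thus weaker and not detected without these 2 cows together. Within A1A1 r was -0.72 and -0.69, within A2A2 -0.49 and -0.30, and over the 10 cows whose label lacks the suffix -0.70 and -0.68. DGAT1 had r = 0.24 with this share (permutation p = 0.417, adjusted p = 0.499).

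Gene length moved with them too. In each library the median log2 CPM of the 323 tested genes of at least 7000 bases, members left out, was set against that of the 2064 genes of at most 1000 bases. This difference ran from -0.70 in A1A1 2 to 0.54 in A2A2 13, with averages of -0.29 ± 0.40 over 7 A1A1 cows and -0.15 ± 0.36 over 7 A2A2 cows (mean ± SD, exact permutation p = 0.492). Libraries with relatively more RNA of long genes had more FASN and ACACA: r was 0.58 for FASN (rho = 0.65, permutation p = 0.0284 and 0.0144) and 0.67 for ACACA (rho = 0.76, permutation p = 0.00772 and 0.00240). Over the same 9 relations the adjusted p of r was 0.0638 for FASN, which does not pass 0.05, and 0.0408 for ACACA, and that of rho was 0.0649 and 0.0216.

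Without A1A1 15 and A2A2 13 the r with this length measure was 0.73 for FASN and 0.76 for ACACA (permutation p = 0.00338 and 0.00224, n = 12). Within A1A1 it was 0.57 and 0.60, within A2A2 0.58 and 0.82, and over the 10 cows whose label lacks the suffix 0.84 and 0.87. For DGAT1, a gene of 1758 bases, it was -0.43 (rho = -0.42, permutation p = 0.125 and 0.140, adjusted p = 0.225 and 0.252). Among the genes of at least 7000 bases, 17.3% reached an r of 0.8 with FASN and 20.4% with ACACA, against 3.54 and 4.02% of those of at most 1000 bases. Without A1A1 9 these shares were 14.5 and 17.6% of the long genes and 1.99 and 2.23% of the short ones. The median r of the long genes with FASN was 0.41. The part of the mitochondrial-length share and of gene length in the joint variation of FASN and ACACA was not tested. The total count of a library had r = -0.22 with FASN, -0.23 with ACACA and 0.010 with DGAT1 (permutation p = 0.444, 0.431 and 0.973, adjusted p = 0.499, 0.499 and 0.973).

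**Figure D5:**
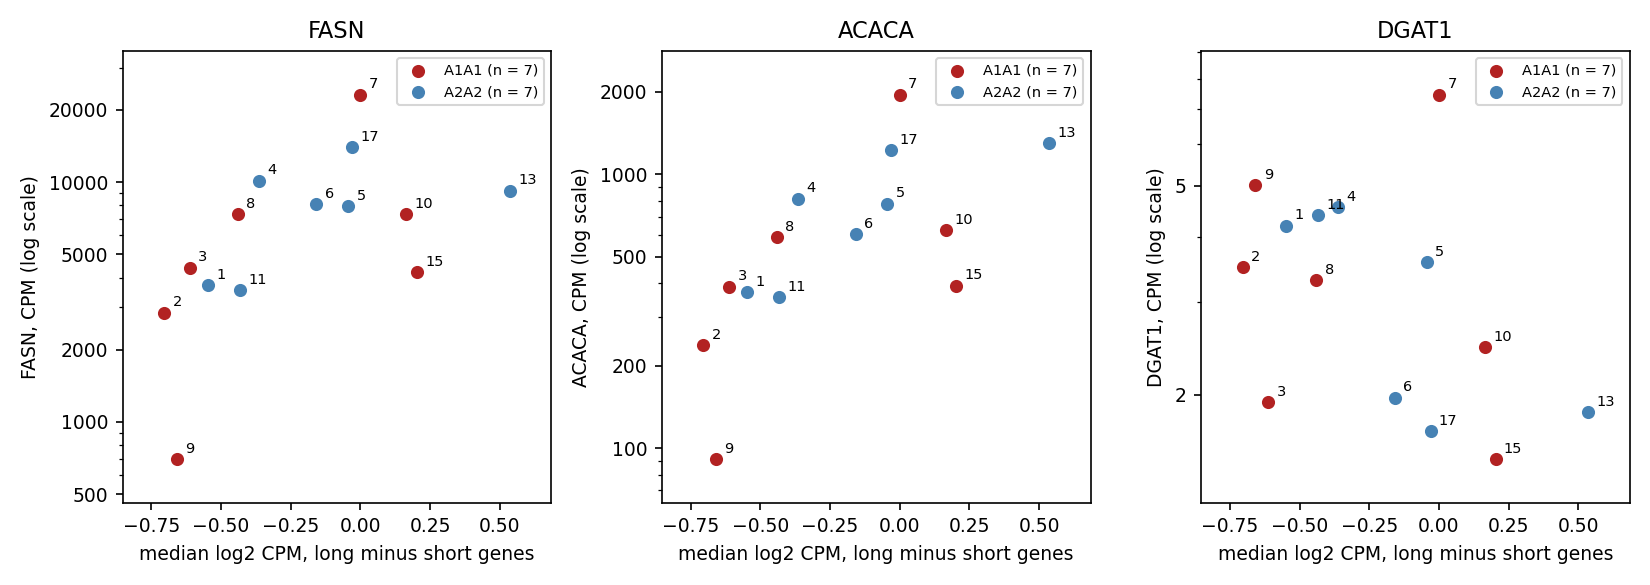
FASN, ACACA and DGAT1 in each cow (CPM, log axes) against the difference in median log2 CPM between genes of at least 7000 bases and genes of at most 1000 bases in the same library. Points are cows with sample numbers; FASN and ACACA are higher where long genes are relatively higher (r = 0.58 and 0.67), and for DGAT1 r is -0.43.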

How the data were processed

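RNA of milk fat globules from 14 cows was measured by paired-end mRNA sequencing, with 1 library per cow and groups taken from the titles. 2 deposited tables were used, unnormalized counts and FPKM, which hold the same 36075 Ensembl identifiers. FastQC 0.11.9, cutadapt 4.0, STAR and edgeR 4.0.16 were used, per the submitters' processing notes, which do not say for what. The build, the gene models and the counter were not given in the sources used here. Deposited counts divided by FPKM gave lengths within 0.05 of a whole base for all 21104 genes with a count, up to 1 factor per library.

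The members, lists and tests were chosen with earlier results of these data known. Genes named beside the members are the 5 of highest r to each. The reference table (ARS-UCD2.0) holds 0 Ensembl identifiers, so the planned lists of pathway and cell type marker genes were not run. The promoter search was not run because no promoter sequences were used here. SCD was not analysed here.

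For the genotype comparison (A2A2 over A1A1) the deposited counts were filtered with filterByExpr, scaled by TMM and fitted with edgeR 4.0.16 under R 4.3.3, using its two-sided quasi-likelihood test with robust estimation and Benjamini-Hochberg adjustment over all 12320 genes. Log2 CPM used a pseudocount of 0.5. Group differences in log2 CPM were compared by exact permutation over 3432 regroupings into 7 and 7. Correlations used 100000 resamples, or all orders below 10 cows, two-sided. The mitochondrial-length genes were found by comparing the 50 genes with the most counts to the lengths of mitochondrial protein and rRNA genes listed for ARS-UCD2.0, taking the most abundant of equal length for each. That set, the length measure and its limits of 7000 and 1000 bases were chosen after the data were seen. Scripts were tested on simulated data. The alternatives were other scalings, filters and tests (DESeq2 1.42.0, limma 3.58.1), each library left out, and the suffix as a covariate or left out. Limma voom was run with a quality weight estimated for each library.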

Additional observations from a re-analysis of the deposited data

Results flagged for a closer look

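Among 12 sets of 7 values (3 levels in CPM and 3 ratios in each genotype), 3 held a cow far from the other 6 by Dixon's test, which for normally distributed values flags about 1 in 20 sets by chance. The sets are not independent, because FASN and ACACA move together and the ratios are formed from the same genes. The count of 3 can therefore not be judged against that rate. A1A1 7 had 23162 CPM of FASN, against 7368 in the next A1A1 cow, and 1955 CPM of ACACA, against 624.7. A1A1 9 had a ratio of FASN to ACACA per length of 7.55, against 10.6 in the next A1A1 cow. CPM and ratios were searched without a log scale and may be skewed. On the log2 scale 2 of the 12 sets held such a cow, which are the ratios of FASN to ACACA and of FASN to DGAT1 in A1A1, both with A1A1 9 lowest, and the levels of A1A1 7 did not stand apart.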

How the results depend on the processing

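No member passed an adjusted p of 0.05 between the genotypes under any of the 28 alternatives run for each gene, of which 27 were planned; the adjusted p was 0.455 or more. With each library left out in turn, the log2 fold change of FASN ranged from -0.025 (A1A1 9 left out) to 0.85 (A1A1 7 left out), that of ACACA from 0.16 to 1.01 with the same cows, and that of DGAT1 from -0.31 (A1A1 15) to 0.11 (A1A1 7). FASN also changed sign without A2A2 17 (-0.010). DGAT1 changed sign by voom with library weights (0.11) and without A1A1 7 and A1A1 9 together (0.32), a setting chosen after seeing the data. With library totals in place of TMM factors the median of all genes moved to 0.18, and the 3 genes had 0.32, 0.50 and -0.0077. The fit on the 10 libraries without the suffix gave 0.024, 0.036 and -0.33, and limma on log2(FPKM + 1) gave 0.66, 0.72 and -0.071. The 0 genes called became 12 by DESeq2 and 1 by limma on log2(FPKM + 1), and stayed 0 with each library left out; the cause was not tested.

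The r of FASN and ACACA lay between 0.95 and 0.99 under all 20 alternatives and passed each time. That of DGAT1 changed sign with library totals, to 0.081 with FASN and 0.089 with ACACA. With each library left out in turn it ranged from -0.48 (A1A1 7 left out) to 0.19 (A1A1 9 left out) with FASN and from -0.49 to 0.15, for the same cows, with ACACA. It was also above 0 without A2A2 17 (0.013 and 0.011) and, with ACACA, without A2A2 13 (0.0027). No paired analysis was possible because the groups share no sample number. Few counts of DGAT1 limit its precision, and all alternatives for SCD and the gene lists were not run.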
